A study of Bos taurus with 20 samples.

Results

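The genes described here encode the receptors through which the cells of the ovarian follicle read estrogens, progesterone, and glucocorticoids. They are ESR1 and ESR2 (estrogen receptors alpha and beta), PGR (the nuclear progesterone receptor), NR3C1 (the glucocorticoid receptor), and PGRMC1 (a membrane progesterone receptor component), 5 of the 22550 genes or transcripts on a custom bovine Agilent array. Members were found by the gene name of their probes, apart from NR3C1, which the array carries as GR-A and which was matched through the RefSeq accession of its transcript. Together they had 12 of the 61325 spots, with 10 different probe sequences.

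The 20 arrays were hybridized with Cy3-labelled RNA from bovine (Bos taurus) ovaries taken after slaughter, 4 arrays per group. TH was the theca layer scraped from the wall of immature antral follicles of 3 to 6 mm, GC the granulosa cells, CC the cumulus cells that surround the oocyte, and oocytes the immature female gametes from the same kind of follicle. The last group, CC after IVM, held cumulus cells from cumulus-oocyte complexes kept for 4 h in in vitro maturation (IVM) medium. The composition of the medium, the breed and age of the animals, and the number of animals per sample are not given in the sources used here, so p-values measure the spread between these samples.

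As background, ESR1, ESR2, PGR, and NR3C1 belong to the nuclear receptor family. Without hormone they are held in a complex with the chaperone HSP90 and its partners, and after binding their steroid they settle on DNA, recruit coregulators, and switch their target genes on or off. In the follicle, GC make estradiol from androgens supplied by the theca, and the gonadotropin surge before ovulation is known to induce PGR in the follicle wall, where it is required for rupture. PGRMC1 is not a nuclear receptor but a heme-binding, cytochrome b5-like membrane protein that takes part in progesterone responses and in cholesterol synthesis.

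The probes of the 4 nuclear receptor genes are shown because each value below rests on these letters alone. Each probe has 60 bases, and none of the 10 sequences is also a probe of another gene. The capitals in PGR probe 2 mark the codons of the P box, found by translating the probe. The P box is the short stretch of the first zinc finger that reads the response element in DNA.
ESR1 probe 1: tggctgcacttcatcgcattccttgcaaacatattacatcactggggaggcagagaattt
ESR1 probe 2: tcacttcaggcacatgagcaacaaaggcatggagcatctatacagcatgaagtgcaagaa
ESR2 probe 1: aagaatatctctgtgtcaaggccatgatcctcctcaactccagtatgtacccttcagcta
ESR2 probe 2: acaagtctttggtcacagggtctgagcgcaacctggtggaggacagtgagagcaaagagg
PGR probe 1: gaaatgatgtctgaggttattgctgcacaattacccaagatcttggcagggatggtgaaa
PGR probe 2: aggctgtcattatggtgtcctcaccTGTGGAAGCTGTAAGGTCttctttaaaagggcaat
NR3C1 probe 1: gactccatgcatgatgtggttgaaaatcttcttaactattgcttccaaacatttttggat
NR3C1 probe 2: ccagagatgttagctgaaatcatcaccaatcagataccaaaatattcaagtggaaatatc

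The transcripts behind these probes were annotated on UMD 3.1 (bosTau6) at chr9:89969586-90255801 for ESR1, chr10:76707922-76757370 for ESR2, chr15:8104485-8222755 for PGR, chr7:56235966-56350171 for NR3C1, and chrX:3468827-3477212 for PGRMC1. NR3C1 had each of its 2 sequences on 2 spots, and the other genes had 2 probes with 1 spot each.

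Gene expression values are log2 of the processed (background-subtracted) intensity, from which the array's own 75th percentile was subtracted, so that 0 is the level of that percentile, and a gene's value is the median over its spots. Levels are compared between groups for the same gene, not between genes, because probes differ in brightness. A gene is called above background on an array if any of its spots was. A spot mark set by the scanner software says whether a signal was well above background. It was carried by 49.3% to 68.8% of spots on each oocyte array and by 54.2% to 62.8% on each other array. The 75th percentile of intensity was 1521 to 2891 on oocyte arrays and 284.5 to 1101 on all others. Values at background were lower on the log2 scale on oocyte replicates 1, 3, and 4 (ESR1 at -8.78, -8.76, and -7.87) than on the somatic arrays. Oocyte replicate 2 had the highest percentile (2891) and the lowest share of marked spots (49.3%), and its background was not lower (ESR1 at -6.14). The median difference between the oocyte and the average of the 3 somatic cell types was -0.52 over all genes, but 0.19 over the 10012 genes above background on each of those 16 arrays. The corresponding medians for CC after IVM against CC were 0.37 and 0.05, the second over 11891 genes.

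The cell type labels were checked against known markers. The theca markers CYP17A1, INSL3, STAR, and LHCGR were above background on all 4 TH arrays, with a summed level (log2 of the summed linear values) of 7.94 to 8.88. Their sum was 4.40 to 6.25 in GC and 4.28 to 4.80 in CC, where CYP17A1 was above background on 1 GC and 0 CC arrays. The sums of GC and CC came mostly from INSL3, with means of 5.29 and 4.54. In the oocyte the sum was 3.35 to 3.55, nearly all of it from STAR (3.43 ± 0.11, SD, above its 2.27 ± 0.34 in TH), while CYP17A1 and LHCGR were at background on all 4 arrays. The stroma and smooth muscle markers COL1A1, COL1A2, ACTA2, and MYH11 summed to 8.42 to 8.53 in TH and 3.48 to 5.36 in GC, so TH did not hold steroid-making cells alone. The sum of the granulosa markers FSHR, CYP19A1, AMH, INHBA, and FOXL2 was 6.79 to 8.82 in GC, 8.58 to 8.62 in CC, 4.18 to 5.06 in TH, and 1.15 to 1.60 in the oocyte. The 6 oocyte markers summed to 7.95 to 8.37 in the oocyte and to at most 1.59 elsewhere, in CC. In these bulk samples, fewer cells of a type and less RNA per cell cannot be told apart.

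**Figure D1:**
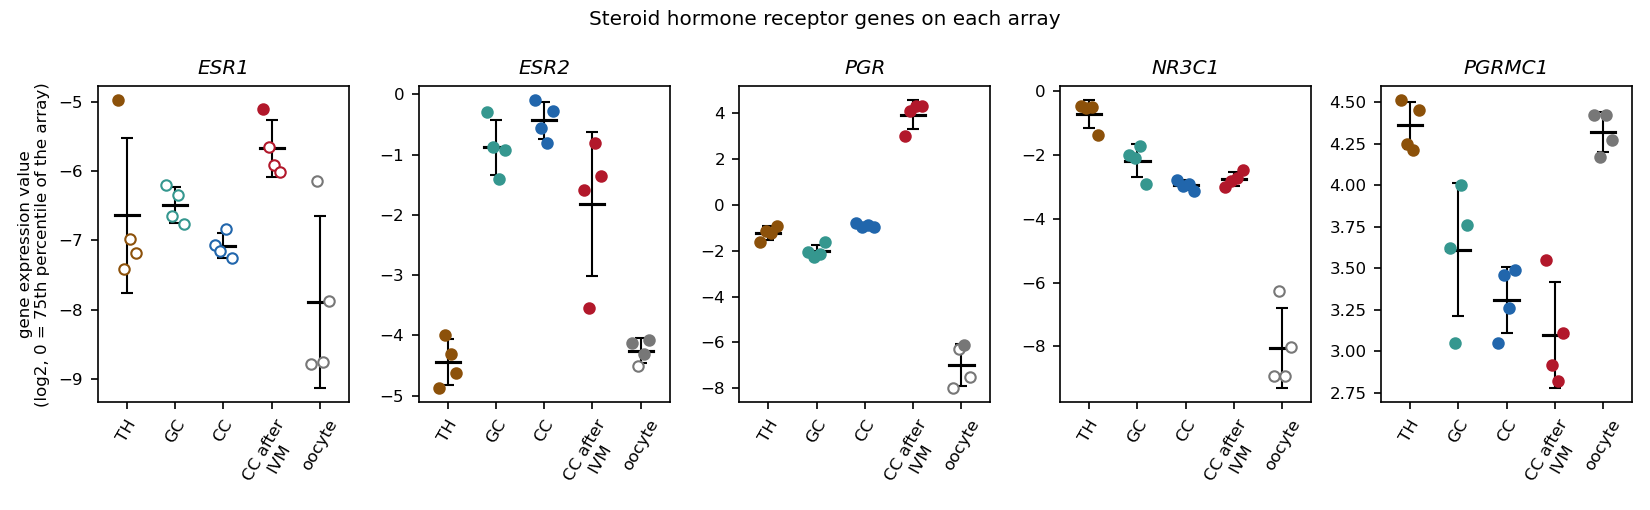
Gene expression value (y axis, log2 relative to the 75th percentile of the array, a separate axis range for each gene) of the 5 receptor genes on each of the 20 arrays, by group on the x axis. Filled points were well above background and open points were not, the bar is the mean and the whiskers are ± SD (n = 4). PGR after IVM lies between 3.02 and 4.33, above every other PGR value, and ESR1 has only 2 filled points.

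In the plot of the 5 genes by array, each gene had a pattern of its own over the follicle. ESR1 stayed at background nearly throughout, ESR2 was high in GC and CC, NR3C1 was highest in TH, PGRMC1 was highest in TH and in the oocyte, and PGR stood out in CC after IVM. Across TH, GC, CC, and oocyte arrays, limma's F-test called 4 of the 5 genes (all but ESR1) at an adjusted p below 0.05, where it called 71.3% of all genes.

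ESR1, the receptor through which estradiol acts in many reproductive tissues, gave almost no signal above background. Its values in TH were -4.98, -7.42, -6.98, and -7.19 on replicates 1 to 4, in GC -6.20, -6.65, -6.34, and -6.76, and in CC -7.07, -7.16, -6.83, and -7.26. In CC after IVM they were -5.10, -5.65, -5.91, and -6.02, and in the oocyte -8.78, -6.14, -8.76, and -7.87. The gene was above background on 1 TH array and on 1 array of CC after IVM, in both cases replicate 1, and on no GC, CC, or oocyte array. Both of these came from probe 1 alone, at -2.75 in TH and -3.68 after IVM, while probe 2 read -7.22 and -6.53 on the same arrays and was above background on 0 of 20. No fold is given for ESR1, because at most 1 array of any group measured it. Its differences past the threshold (below) were differences between values at background.

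ESR2, the receptor known as the main estrogen receptor of the granulosa lineage, was high in GC and CC and low in TH and the oocyte. The values in GC were -0.30, -0.87, -1.40, and -0.93, and in CC -0.10, -0.55, -0.80, and -0.28. In TH they were -4.87, -3.99, -4.30, and -4.62, and in the oocyte -4.12, -4.51, -4.30, and -4.07. Every GC and CC array lay above every TH and oocyte array. All 4 TH arrays and 3 oocyte arrays were still above background by either or both probes. In TH, probe 2 on replicate 1 (-5.53) and probe 1 on replicate 4 (-5.25) were at background, so the low TH level was measured only in part.

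By limma, the ESR2 difference of TH minus GC was -3.57 ± 0.25 on the log2 scale (± SE, 11.9-fold lower in TH, adjusted p = 6.7e-08), and that of TH minus CC was -4.01 ± 0.25 (16.1-fold lower, adjusted p = 9.0e-09). The same differences were -3.85 and -4.11 within the slide that held replicates 1 and 2, and -3.29 and -3.92 within the slide of replicates 3 and 4. GC and CC did not differ beyond their spread (difference -0.44 ± 0.25, adjusted p = 0.33), nor did the oocyte and TH (0.20 ± 0.25, adjusted p = 0.48). The sum of granulosa markers, given above, was also lower in TH than in GC and CC. It did not follow ESR2 throughout, being lower still in the oocyte (1.15 to 1.60), where ESR2 did not differ from TH. After IVM the sum was 9.29 to 9.59, while ESR2 had a mean of -1.82, against -0.43 in CC. The sum in CC and after IVM came mostly from INHBA, with means of 8.31 in CC and 9.39 after IVM. The other markers of the sum had lower means after IVM than in CC, as ESR2 did. These were FSHR (2.29 in CC and 1.04 after IVM), AMH (5.97 and 4.93), CYP19A1, and FOXL2 (-2.52 and -6.08, at background after IVM). The part of granulosa cells in the TH level of ESR2 was not tested.

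PGR was present in all 3 somatic cell types and nearly absent from the oocyte. Its values were -1.62, -1.12, -1.21, and -0.91 in TH, -2.04, -2.29, -2.16, and -1.61 in GC, and -0.78, -0.98, -0.88, and -0.97 in CC. In the oocyte they were -7.98, -6.30, -6.11, and -7.52, with replicate 3 alone above background. The 4 GC arrays lay below the 4 CC arrays, and TH overlapped with GC and with CC.

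The lower PGR level of GC against CC (-1.12 ± 0.34, a ratio of 2.17) stood at the threshold of limma's test with an adjusted p of 0.0502. It was -1.28 within the first slide and -0.96 within the second. The call was made without GC replicate 4 (adjusted p = 0.040), or without oocyte replicate 1, 2, or 3 (adjusted p = 0.018, 0.032, and 0.028), arrays that enter this difference through the shared variance. PGR in TH against GC had a difference of 0.81 ± 0.34 (adjusted p = 0.098), which was past the threshold without oocyte replicate 1 (adjusted p = 0.042) and in fits of the TH and GC arrays alone, added after seeing the data (adjusted p = 0.023 with the replicate number as a block and 0.025 without it). Counting these, limma called this difference in 6 of 33 fits, with adjusted p from 0.0077 to 0.49.

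NR3C1, which binds cortisol and is present in most tissues, was highest in TH. The TH values were -0.46, -0.51, -0.50, and -1.36, the GC values -1.99, -2.09, -1.70, and -2.91, and the CC values -2.78, -2.98, -2.89, and -3.12. The TH arrays did not overlap with GC or CC, while GC replicate 4 lay within the range of CC. In the oocyte the values were -8.93, -6.26, -8.93, and -8.03, and none of these arrays was well above background.

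TH exceeded CC in NR3C1 by 2.24 ± 0.47 (4.71-fold, adjusted p = 0.0016), and this difference was 2.39 within the first slide (adjusted p = 0.11) and 2.08 within the second (adjusted p = 0.034). TH exceeded GC by 1.47 ± 0.47 (2.76-fold, adjusted p = 0.031), or 1.56 and 1.37 within the slides, where neither difference passed (adjusted p = 0.32 and 0.15). That call was lost without TH replicate 1, 2, or 3 (adjusted p = 0.076, 0.070, and 0.072) or GC replicate 1, 2, or 4 (adjusted p = 0.0516, 0.056, and 0.094), and the smallest difference was 1.22, without GC replicate 4. The same-numbered TH and GC arrays, which also shared a slide, deviated together over all genes, and TH minus GC was 1.54, 1.58, 1.20, and 1.55 for numbers 1 to 4. In a fit of these 8 arrays with the number as a block, added after seeing the data, the call was made with an adjusted p of 0.0020. GC against CC gave 0.77 ± 0.47 (adjusted p = 0.38). The sum of theca markers ran in the same order, TH above GC and CC, and the part of theca RNA in the GC level was not tested.

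PGRMC1 was far above background on all 20 arrays and varied little. It read 4.51, 4.25, 4.21, and 4.45 in TH, 3.62, 3.05, 4.00, and 3.76 in GC, 3.05, 3.46, 3.26, and 3.49 in CC, and 4.42, 4.17, 4.42, and 4.27 in the oocyte. TH and oocyte arrays overlapped with each other and lay above all GC and CC arrays. TH exceeded GC by 0.75 ± 0.19 (1.68-fold, adjusted p = 0.0076) and CC by 1.04 ± 0.19 (2.06-fold, adjusted p = 0.00047). Within the slides, the difference to GC was 1.05 and 0.45 (adjusted p = 0.096 and 0.28) and that to CC 1.13 and 0.96 (adjusted p = 0.062 and 0.029). GC and CC differed by 0.29 ± 0.19 (adjusted p = 0.41).

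Among the somatic cells, then, limma called 3 of the 5 genes between TH and GC, where it called 26.3% of all genes, and the same 3 (ESR2, NR3C1, and PGRMC1) between TH and CC, where it called 31.8%. Between GC and CC it called 0 of 5, against 9.88% of all genes, and 1 member (PGR) had an unadjusted p under 0.05.

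The oocyte had less NR3C1 and PGR transcript than each of the somatic cell types, less ESR2 than GC and CC but not than TH, and more PGRMC1 than GC and CC. Against the average of the 3 somatic cell types, 1 of the 5 genes was higher (PGRMC1), where 32.9% of all genes were called higher, and 4 were lower, where 38.3% were called lower. This difference was -2.33 ± 0.20 for ESR2 (adjusted p = 3.5e-08) and 0.56 ± 0.15 for PGRMC1 (adjusted p = 0.0042). For NR3C1 and PGR, which were above background on 0 and 1 of the 4 oocyte arrays, the fitted differences of -6.10 ± 0.38 (adjusted p = 7.1e-10) and -5.60 ± 0.28 (adjusted p = 3.8e-11) rest on oocyte values at background and do not give the size of the difference. The lower value of ESR1 (-1.15 ± 0.45, adjusted p = 0.033) was a difference between background levels, and oocyte replicate 2, at -6.14, lay within the range of the somatic arrays. Without oocyte replicate 1, 3, or 4 the adjusted p for ESR1 was 0.14, 0.14, and 0.066.

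Since no oocyte array measured NR3C1 above background, its ratio is only a bound. Set against the lowest signal above background on each oocyte array (a mean of -5.90), TH had at least 36.7-fold more NR3C1 than the oocyte (adjusted p = 1.2e-09), GC at least 13.3-fold more (adjusted p = 1.9e-08), and CC at least 7.79-fold more (adjusted p = 9.4e-08). PGR was measured on 1 oocyte array, and the other 3 were set to the same floor (a mean of -5.72), so its ratios are bounds too. TH had at least 22.7-fold, GC at least 13.0-fold, and CC at least 28.2-fold more PGR than the oocyte (adjusted p of the fit without the floor 4.3e-10, 2.8e-09, and 2.4e-10). For NR3C1 and PGR, all 12 somatic arrays lay above all 4 oocyte arrays.

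Taken pair by pair, limma called 2 of the 5 genes (NR3C1 and PGR) between the oocyte and TH, where it called 64.6% of all genes. It called all 5 between the oocyte and GC, where the share over all genes was 68.6%, the call of ESR1 being between values at background and lost without GC replicate 1, 2, or 3 (adjusted p = 0.077, 0.0536, and 0.069) or oocyte replicate 1, 3, or 4 (adjusted p = 0.11, 0.11, and 0.061) and with the replicate number as a block (adjusted p = 0.0525). It called 4 (all but ESR1) between the oocyte and CC, where it was 63.7%. The PGRMC1 level of the oocyte did not differ from TH beyond the spread (-0.03 ± 0.19, adjusted p = 0.87) and exceeded CC by 1.01 ± 0.19 (2.01-fold, adjusted p = 0.00021) and GC by 0.72 ± 0.19 (1.64-fold, adjusted p = 0.0035). Within the slides, the excess over CC was 1.04 and 0.97 and that over GC 0.96 and 0.47, the last with an adjusted p of 0.10.

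**Figure D2:**
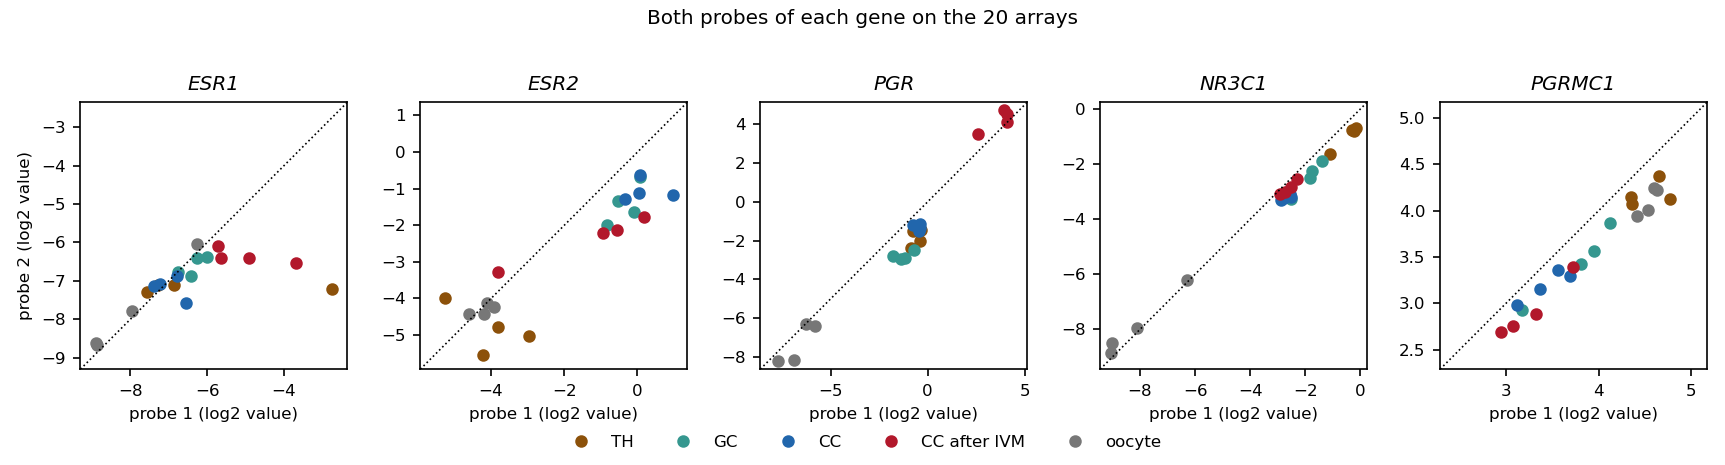
Value of probe 1 (x axis) against probe 2 (y axis) of each gene on the 20 arrays, both in log2 relative to the 75th percentile of the array, coloured by group. The dotted line marks equal values. The points of PGR, NR3C1, and PGRMC1 fall along a line, and the ESR1 points of TH replicate 1 (-2.75 against -7.22) and IVM replicate 1 (-3.68 against -6.53) lie far to its right.

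The probes of a gene were read separately to see whether these patterns rest on a single probe. Over the 20 arrays, Pearson's r between the probes was 1.00 for NR3C1, 0.98 for PGR and for PGRMC1, 0.92 for ESR2, and 0.62 for ESR1. These correlations describe probes on the same arrays and share their RNA and normalization. For NR3C1, TH exceeded CC by 2.24 on each probe, and for PGR, GC minus CC was -0.78 on probe 1 (adjusted p = 0.22) and -1.46 on probe 2 (adjusted p = 0.032). For ESR2 in TH, the probes did not give the arrays the same order, with probe 1 at -2.95 on replicate 2 and -5.25 on replicate 4, and probe 2 at -5.03 and -3.99.

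After 4 h of IVM, PGR was the receptor that changed most in CC. Its values were 3.02, 4.09, 4.31, and 4.33 after IVM and -0.98 to -0.78 before it. All 4 arrays after IVM lay above all 4 CC arrays. The difference was 4.84 ± 0.29 on the log2 scale, a 28.7-fold rise with 23.4 to 35.1 at ± 1 SE (adjusted p = 6.4e-06). It was 4.17 ± 0.35 by probe 1 and 5.52 ± 0.28 by probe 2, and between 4.71 and 5.15 when any array was left out. Limma called 2 of the 5 genes higher after IVM (PGR and ESR1), where it called 30.3% of all genes, and 1 lower (ESR2), where it called 15.5%. By single probes, 5 of the 10 passed, against 45.8% of all probes.

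All 4 arrays of CC after IVM were on a slide of their own, and the CC arrays were on 2 others, so slide and IVM cannot be told apart in this comparison. Of all calls after IVM 66.1% were rises, against 43.2% with quantile normalization, 58.3% with the percentile taken over probes above background on all arrays, and 83.4% with normexp background correction. PGR rose under each of them. The summed level of 4 cumulus expansion markers (HAS2, TNFAIP6, PTX3, and PTGS2) was -0.06 to 1.49 in CC and 2.76 to 3.84 after IVM. Only HAS2 and TNFAIP6 had higher means after IVM, TNFAIP6 at -0.01 in CC and 2.02 after it. PTX3 (-0.66 and -0.77) and PTGS2 (-2.48 and -2.52) had nearly the same means before and after. In CC, HAS2 was above background on 2 arrays. HAS2, which makes the hyaluronan of the expanding cumulus, was at -5.56 ± 0.72 in CC and 2.20 ± 0.59 after IVM (mean ± SD), and the part of other changes of maturation in the PGR level was not tested.

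ESR2 had values of -1.58, -3.54, -0.80, and -1.35 after IVM, against -0.80 to -0.10 before. Replicate 2 was low by both probes (-3.80 and -3.28), and replicate 3 reached the lower end of the range of CC. The difference of -1.38 ± 0.51 was just past the threshold (adjusted p = 0.0492). Without IVM replicate 2 it was -0.81 (adjusted p = 0.038). The call was lost without CC replicate 1, 2, 3, or 4 (adjusted p = 0.11, 0.079, 0.065, and 0.092) and without IVM replicate 1 or 4 (adjusted p = 0.078 and 0.063).

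NR3C1 and PGRMC1 were not called after IVM. NR3C1 read -2.99, -2.81, -2.72, and -2.45, and overlapped with CC (difference 0.20 ± 0.19, adjusted p = 0.41). PGRMC1 read 3.55, 2.92, 2.82, and 3.11 (difference -0.21 ± 0.22, adjusted p = 0.44). For ESR1 the values at background gave a difference of 1.41 ± 0.24 (adjusted p = 0.0016), with 0 of 4 CC arrays and 1 of 4 arrays after IVM above background, while the median over all genes also moved up by 0.37.

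**Figure D3:**
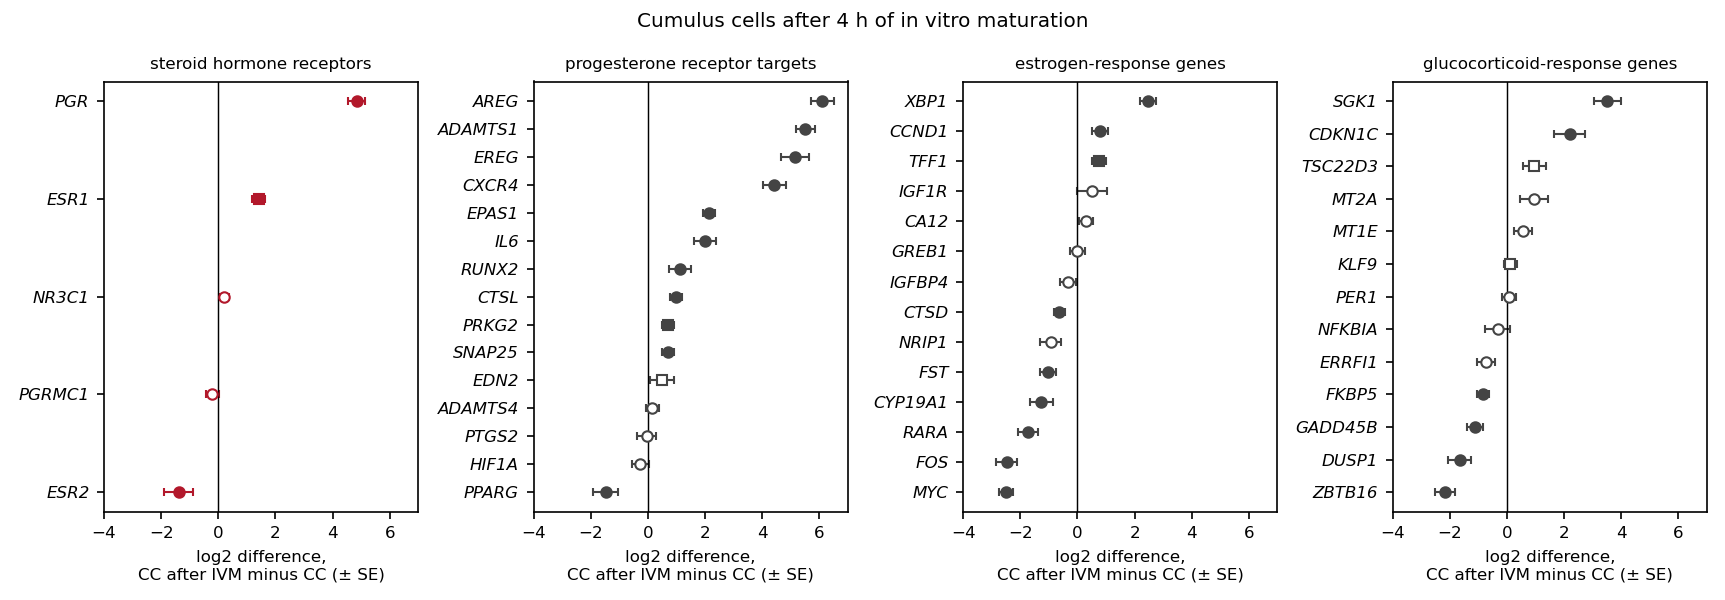
Log2 difference, CC after IVM minus CC (x axis, ± SE, n = 4 each), for the 5 receptor genes and for genes known to respond to them (y axis, sorted by value). Filled symbols passed limma's test at an adjusted p below 0.05, and squares mark genes above background on fewer than 3 arrays of each group. Of the progesterone receptor targets, 10 of 15 are filled to the right of 0 and PPARG is filled to the left.

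The genes that answer to these receptors were read from lists of known targets, drawn up for this work. Of 15 genes linked to PGR in the ovulatory follicle, 10 rose after IVM and 1 fell, with a median difference of 0.98, beside shares of 30.3% and 15.5% and a median of 0.37 over all genes. Of the 10, 9 were above background on at least 3 arrays of a group, the exception being PRKG2. Over the alternative settings and left-out arrays, between 7 and 12 rose and at most 2 fell. ADAMTS1, a protease of the ovulatory matrix, rose by 5.51 ± 0.33 (45.5-fold, adjusted p = 6.1e-06), and CXCR4, a chemokine receptor, by 4.43 ± 0.41 (21.6-fold, adjusted p = 5.0e-05). PPARG, a nuclear receptor for lipids, fell by 1.48 ± 0.43 (adjusted p = 0.023).

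The EGF-like ligands AREG and EREG of this list, singled out after their values were seen, were above background on 0 of 4 CC arrays and on all 4 after IVM. AREG had a mean of -1.46 ± 0.94 (SD) after IVM and was at least 15.4-fold higher than in CC (adjusted p = 9.8e-06), and EREG had a mean of -2.39 ± 1.18 and was at least 8.12-fold higher (adjusted p = 6.1e-05). PTGS2, the prostaglandin synthase of ovulation, had a difference of -0.04 ± 0.33 (adjusted p = 0.93). These genes also answer to other signals of maturation, and PGR protein was not measured.

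Of 14 known estrogen-response genes other than PGR, 3 rose after IVM (1 of them, TFF1, at background in both groups) and 6 fell, with a median of -0.48. Over all genes, 30.3% were called higher and 15.5% lower, with a median of 0.37. MYC and FOS, which drive and mark proliferation and early response, fell by 2.51 ± 0.24 (adjusted p = 6.8e-05) and 2.48 ± 0.36 (adjusted p = 0.00072). XBP1, a factor of the unfolded protein response, rose by 2.46 ± 0.28 (adjusted p = 0.00018) and CCND1, a cyclin of the G1 phase, by 0.78 ± 0.28 (adjusted p = 0.044). RARA, CYP19A1 (aromatase), FST, and CTSD made up the other 4 that fell.

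Of the 13 glucocorticoid-response genes on the array, 2 rose and 4 fell after IVM, with a median of 0.06, beside 30.3%, 15.5%, and a median of 0.37 over all genes. SGK1, a kinase induced by glucocorticoids and by FSH, rose by 3.51 ± 0.47 (11.4-fold, adjusted p = 0.00043) and CDKN1C, a cell cycle inhibitor, by 2.19 ± 0.55 (adjusted p = 0.012). DUSP1, a MAP kinase phosphatase, fell by 1.66 ± 0.40 (adjusted p = 0.010), GADD45B by 1.12 ± 0.27 (adjusted p = 0.010), FKBP5, which lowers the affinity of NR3C1 for its hormone, by 0.84 ± 0.20 (adjusted p = 0.0093), and ZBTB16 by 2.16 ± 0.35 (adjusted p = 0.0013). ZBTB16 was above background on 4 CC arrays but on 1 after IVM, so the size of its fall was measured only in part. Over the alternative settings its difference lay between -2.55 and -0.07. The members of this list thus moved both ways.

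The machinery around the receptors was read next, beside the shares of 30.3% higher and 15.5% lower over all genes. Of 12 chaperones of the receptor complex, 3 rose (DNAJA1 by 1.03 ± 0.22, PTGES3, the p23 cochaperone, by 0.83 ± 0.18, and HSP90AA1 by 0.80 ± 0.16) and 2 fell (PPP5C by 0.99 ± 0.26 and FKBP5). Of 15 coregulators, 3 rose (among them NCOA3 by 0.88 ± 0.21 and MED1 by 0.79 ± 0.18) and 3 fell (the coactivator NCOA2 by 1.80 ± 0.35, NCOA7 by 0.67 ± 0.22, and PELP1 by 0.51 ± 0.19). Of 8 relatives and partners of PGRMC1, CYP51A1, the sterol demethylase that PGRMC1 binds, rose by 2.11 ± 0.21 (4.31-fold, adjusted p = 7.7e-05), SERBP1 rose by 0.74 ± 0.21, and CYB5D2 fell by 1.05 ± 0.31.

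Enzymes that make or remove the ligands were also followed in CC. Of the 11 on the array, 3 were called higher and 3 lower, with a median of 0.26, beside 30.3%, 15.5%, and a median of 0.37 over all genes. HSD17B12 rose by 1.83 ± 0.19 (3.56-fold, adjusted p = 0.00011) and HSD11B1, which regenerates cortisol from cortisone, by 1.61 ± 0.38 (adjusted p = 0.0088), with 2 CC arrays and 4 arrays after IVM above background. HSD3B1, which makes progesterone, fell by 1.37 ± 0.24 (adjusted p = 0.0020) and SRD5A1 by 0.65 ± 0.21 (adjusted p = 0.031). The third call, of H6PD (adjusted p = 0.027), gave no measurable fall, since its mean of -4.76 in CC lay at the floor of the arrays after IVM (-4.73), none of which was above background. The third rise, of AKR1C4, was seen on 1 array above background.

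**Figure D4:**
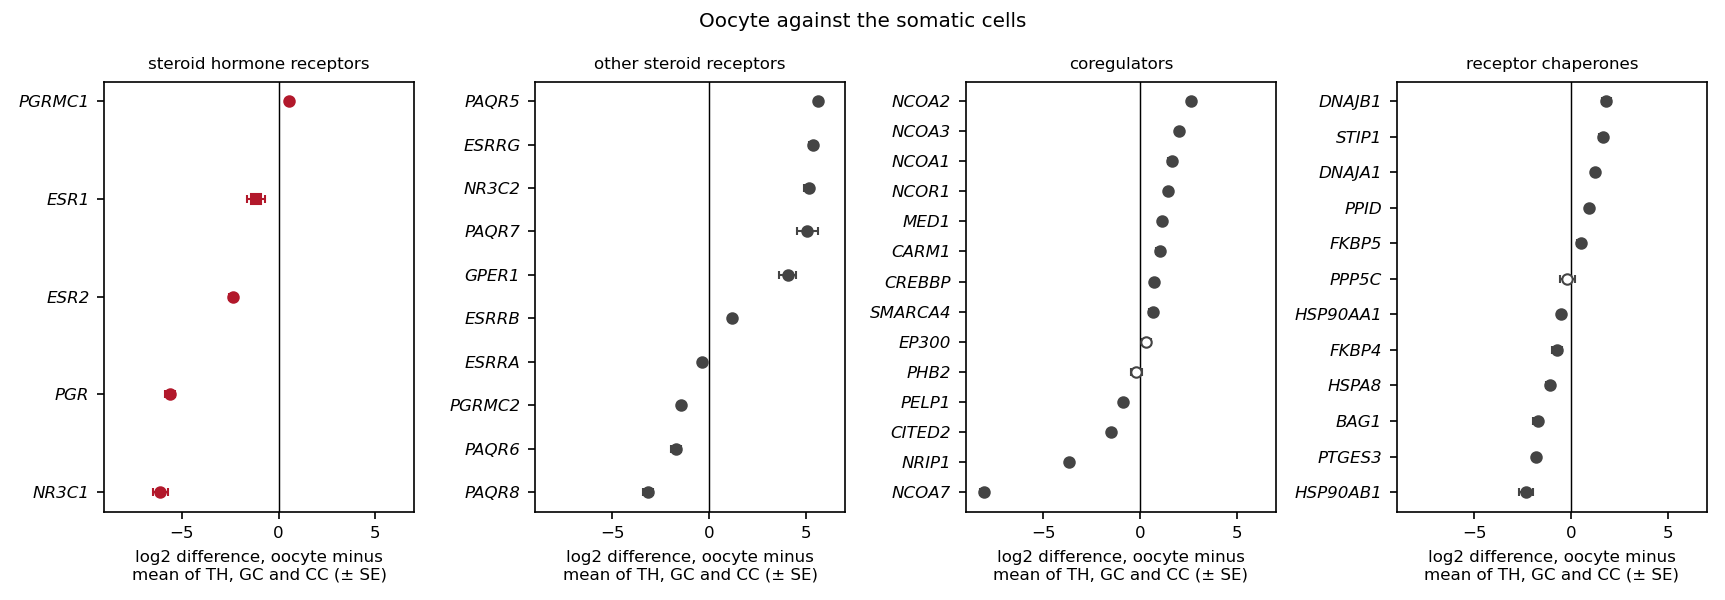
Log2 difference, oocyte minus the average of the somatic cell types TH, GC, and CC (x axis, ± SE, n = 4 per cell type), for the 5 receptor genes, other steroid receptors, coregulators, and chaperones (y axis, sorted by value), without the listed genes that are not reported here. Filled symbols passed limma's test at an adjusted p below 0.05, and squares mark genes above background on fewer than 3 arrays of every group. NR3C1 and PGR lie to the left of -5, and PAQR5, ESRRG, NR3C2, and PAQR7 to the right of 5.

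Other steroid receptors in the oocyte went in both directions. Of 11 genes, 6 were higher than in the somatic cells and 5 lower, with a median of 1.17 against -0.52 over all genes (32.9% higher and 38.3% lower). With normexp correction, 5 were called higher and 6 lower (median -0.32, against -1.30 over all genes). With the brightest probe per gene, the counts were the same 5 and 6 (median -0.47, against -0.52 over all genes). NR3C2, the mineralocorticoid receptor, which also binds cortisol, was above background on all 4 oocyte arrays (-1.42 ± 0.21, SD) and on no somatic array, and was at least 14.6-fold higher than in TH (adjusted p = 2.0e-10), 12.2-fold than in GC, and 15.9-fold than in CC. ESRRG, an orphan receptor related to ESR1, was at least 13.0-fold higher than in CC (adjusted p = 7.4e-12). PAQR5, a membrane progestin receptor, was at least 23.7-fold higher than in GC (adjusted p = 1.1e-12).

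The remaining rises were those of PAQR7 (5.05 ± 0.53, adjusted p = 3.3e-07), the membrane estrogen receptor GPER1 (at least 6.21-fold above TH and 5.20-fold above GC), and ESRRB (1.17 ± 0.16, adjusted p = 8.0e-06). ESRRB turned to lower with normexp correction and with the brightest probe per gene, its lowest value being -1.10. PGRMC2, the relative of PGRMC1, was lower in the oocyte, with a difference of -1.49 ± 0.15 (2.80-fold, adjusted p = 2.1e-07), the opposite direction to PGRMC1. PAQR6 was lower at -1.72 ± 0.26 (adjusted p = 2.3e-05) and ESRRA at -0.39 ± 0.15 (adjusted p = 0.032, with the sign turned in 1 of 15 settings). PAQR8, a further membrane progestin receptor, was above background on no oocyte array, and TH had at least 6.09-fold more of it (adjusted p = 2.4e-08). Except for ESRRB, PGRMC2, and PAQR6, these genes were singled out after their values were seen.

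Of 15 coregulators, 9 were called higher and 4 lower in the oocyte (median 0.71), beside 32.9% higher, 38.3% lower, and a median of -0.52 over all genes. The coactivators NCOA2 and NCOA3 were higher by 2.63 ± 0.17 (6.19-fold, adjusted p = 1.3e-09) and 1.98 ± 0.13 (3.94-fold, adjusted p = 1.1e-09). NCOA7 was lower at -8.05 ± 0.20 (adjusted p = 2.0e-14), with 3 of 4 oocyte arrays above background, and NRIP1, a corepressor, at -3.67 ± 0.16 (12.8-fold, adjusted p = 6.2e-12). With normexp correction, 6 were called higher and 5 lower.

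Chaperones were divided, with 5 of 12 higher and 6 lower (median -0.38). For this list and the next, the shares over all genes were 32.9% higher and 38.3% lower, with a median of -0.52. DNAJB1 and STIP1, which help to load clients onto HSP90, were higher by 1.81 ± 0.25 (adjusted p = 9.7e-06) and 1.62 ± 0.19 (adjusted p = 1.5e-06). HSP90AB1 was lower at -2.35 ± 0.35 (5.09-fold, adjusted p = 1.8e-05) and PTGES3 at -1.80 ± 0.13 (3.49-fold, adjusted p = 4.5e-09). Of the PGRMC1 relatives and partners, 2 of 8 were higher (INSIG1 and FECH) and 6 lower, CYP51A1 at -2.53 ± 0.19 (adjusted p = 5.3e-09) and TMEM97 at -1.51 ± 0.16 (adjusted p = 5.5e-07).

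Among the response genes, 11 of 14 estrogen-response genes were lower in the oocyte and 0 higher (median -3.22, beside 38.3% lower, 32.9% higher, and a median of -0.52 over all genes, which apply to each list here), and between 9 and 13 were lower over the alternative settings. MYC was lower at -8.04 ± 0.32 (adjusted p = 2.6e-12) and FOS at -6.26 ± 0.34 (adjusted p = 1.1e-10). Of 13 glucocorticoid-response genes, 5 were higher and 7 lower (median -0.67), with PER1 (3.09 ± 0.28, adjusted p = 5.1e-08) and NFKBIA (2.74 ± 0.16, adjusted p = 3.4e-10) higher and the metallothioneins MT1E (-5.54 ± 0.38, adjusted p = 1.7e-09) and MT2A (-3.64 ± 0.32, adjusted p = 4.7e-08) lower. Of the PGR targets, 7 of 15 were higher and 5 lower (median 0.38), CTSL, a cathepsin, being lower at -3.35 ± 0.26 (adjusted p = 1.1e-08). Of 11 steroid-converting enzymes, 2 were higher and 5 lower (median -0.75), with HSD3B1 at -8.59 ± 0.35 (adjusted p = 3.9e-12) and HSD17B7 at -6.73 ± 0.19 (adjusted p = 8.8e-14). HSD11B2, which inactivates cortisol and was singled out after its value was seen, was above background on all 4 oocyte and TH arrays and exceeded TH by 5.43 ± 0.70 (43.0-fold, adjusted p = 4.2e-06), while 2 GC and 2 CC arrays were above background.

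The genes most like each receptor over the 20 arrays were sought by Pearson's r among 13730 named genes above background on at least 3 arrays of some group. Like ESR2 were BCL11A (0.962), RGS17 (0.953), and IHH (0.951), all high in GC and CC and low in TH and the oocyte. IHH, Indian hedgehog, which GC send to the theca, was at 4.85 ± 0.73 in GC, 7.76 ± 0.11 in CC, and -1.17 ± 1.44 in TH (SD). Like PGR were YARS1 (0.987), CYP51A1 (0.981), and the chaperone CALR (0.981), each at its highest mean in CC after IVM and its lowest in the oocyte. Like NR3C1 were MEF2A (0.988), PLSCR4 (0.985), and INSL3 (0.981), the last a hormone of the theca with a mean of 8.42 ± 0.45 in TH, against 5.29 ± 0.94 in GC and 4.54 ± 0.25 in CC (SD). Like PGRMC1 were PHYH (0.952), RNF13 (0.944), and CRIPT (0.938). The arrays of a group share their cell type, so these values describe likeness over 5 groups more than over 20 independent samples.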

How the data were processed

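Total RNA was labelled with Cy3 and hybridized to 1-colour arrays, 1 per sample. Per the file headers, the authors deposited Feature Extraction 10.7.3.1 output, in which intensity is given per spot with background subtracted and without normalization between arrays, with marks of 0 or 1 for signal above background, and log2 values in tabular form, which equals log2 of the median signal minus the array's median within 5.0e-09. Control spots and outlier spots (at most 23 per array) were left out, no spot being saturated (0). From each array's log2 processed signal its 75th percentile was subtracted, and the median over a gene's spots was taken.

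Models were fitted with limma 3.58.1 (lmFit, eBayes; R 4.3.3; the package data.table, version 1.17.8), on 16 arrays for the cell types and on 8 for IVM, with Benjamini–Hochberg adjustment over all 22550 genes. Where no array of a group was above background, a bound was computed against the higher of the array's lowest signal above background and the gene's own value. Scripts were tested on simulated data. Summaries used pandas 2.3.3, numpy 2.4.6, and Biopython 1.88, and plots matplotlib 3.10.9, all under Python 3.11.15. Symbols were taken from the files or matched by accession to RefSeq (734 nameless probes). The receptors, lists, and tests were chosen with earlier results of these data known. The text names the 5 receptors, from each list up to 2 called genes per direction with the largest non-overlapping differences among those above background on at least 3 arrays of each compared group, the 3 genes most like each receptor, and markers. Other list genes were named after their values were seen, and some listed genes are counted but not reported here by name. Same-numbered TH and GC arrays deviated together (correlations of 0.20 to 0.44 in 4 of 4 pairs, from the data and not the labels), and no other pair of groups did so throughout. Alternatives were other normalizations and background corrections, probe summaries, a filter, blocks, single slides, and left-out arrays. The number of arrays limits the precision.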

Additional observations from a re-analysis of the deposited data

Results flagged for a closer look

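NR3C1 in TH replicate 4 had a gene expression value of -1.36, apart from the other TH arrays at -0.51 to -0.46. Its gap to the nearest of them was 0.94 of the range of the group and above Dixon's critical value for 4 samples. Of the 25 groups of 4 arrays examined (5 genes in 5 groups) it was the only such value, and chance alone flags about 1 in 20 groups. Both NR3C1 probes were low on this array. The arrays numbered 4 also had the lowest NR3C1 values of GC (-2.91, against -2.09 to -1.70) and of CC (-3.12). In CC after IVM, however, replicate 4 had the highest value (-2.45). In the oocyte it was not the lowest (-8.03, at background). TH replicate 4 was not the lowest of TH for ESR2, PGR, or PGRMC1.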

How the results depend on the processing

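Of 40 member differences, 23 kept their side of the threshold under every alternative and 17 changed it under some. Of 552 values, 2 were reversed, that is, called in the direction opposite to the main fit. Differences that were never called could still change sign, as for ESR1 in TH against GC (-0.71 to 0.26) and TH against CC (-0.12 to 0.92). The reversals were between the oocyte and TH, for ESR2 with normexp correction (-0.69, adjusted p = 0.0046) and for PGRMC1 in the deposited table (0.64, adjusted p = 0.0044). In that comparison 4 members were called under each of these alternatives, in place of 2. Within slide 1, 3 members were called for the oocyte against the somatic mean, 1 for TH against GC, and 1 for TH against CC, and within slide 2 there was 1 for TH against GC, with 2 arrays per group. Between GC and CC, 1 member (PGR) was called with quantile normalization, normexp correction, the deposited table, the mean over probes, the filter on dim genes, and trended robust variances, and 0 to 1 when an array was left out. The cause of these changes was not tested.

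After IVM, PGR was called under all alternatives. ESR2 was not called with quantile normalization (adjusted p = 0.11), the array median (0.0537), or its brightest probe (0.17). NR3C1 was called with normexp correction (0.41, adjusted p = 0.0052) and PGRMC1 in the deposited table (-0.69, adjusted p = 0.0047). Over all genes, 10329 calls became 17714 with normexp correction and 6377 with quantile normalization. For the oocyte against the somatic mean, 46.2% of calls were higher, or 26.4% with normexp correction and 53.4% within slide 1. Slide as a random block, chosen after seeing the data, gave 3 members and 15311 calls after IVM. Its estimated correlation within slides was negative (-0.261), and with IVM on a slide of its own this block cannot separate slide from IVM.

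Same-numbered arrays of TH and GC went together by their deviations, which those of no other pair of groups did throughout. These TH and GC arrays also shared a slide, and differently numbered arrays were not compared, so pairing and slide cannot be told apart here. Same-numbered arrays deviated together (correlation over 0.1) in 14 of 40 pairs of groups and numbers, over 11362 genes, in 4 of 4 between TH and GC (0.20 to 0.44), and in 0 of 4 between CC and CC after IVM. A fit of the TH and GC arrays alone, chosen after seeing the data, called 4 members with the replicate block and 4 without it, PGR being added to the 3. With the replicate block, 4 members were called by the F-test, 5, 3, 3, 0, 2, 4, and 4 in the oocyte against somatic mean, TH against GC, TH against CC, GC against CC, and oocyte against TH, GC, and CC, and 3 after IVM. The block ended 1 call, ESR1 in the oocyte against GC (-1.40, adjusted p = 0.0525), and gave 7052 calls after IVM over all genes. Signals at background set the limit for ESR1 in all groups and for NR3C1 in the oocyte.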
